A study of Sus scrofa domesticus with 9 samples.

Results

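The plasma protein genes followed here in preterm piglet liver were ALB (albumin), AFP (alpha-fetoprotein), AHSG (fetuin A), TF (transferrin), GC (vitamin D binding protein), PON1 and PON3 (paraoxonases), SERPINA1 (alpha-1-antitrypsin) and SERPINA6 (corticosteroid-binding globulin). These 9 genes were chosen by name as albumin, fetal and negative acute phase proteins. No cutoff on a measured value was used, but earlier results of these data were known. All 9 are among the 16223 genes for which a mean over libraries was deposited, and 1 of them, PON3, is also among the 1054 genes with counts per library. The other 8 therefore have a level but no value per group, and PN was compared with bottle-feeding in PON3 alone.

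Liver from the right median lobe was taken at day of life 15 from Yorkshire piglets delivered preterm by caesarean section, with 6 PN libraries and 3 bottle-fed libraries. The PN piglets stayed on parenteral nutrition until sacrifice and received a daily orogastric dose of medium-chain triglyceride oil, the vehicle of a therapeutic tested in an earlier report of the same animals. The bottle-fed piglets were weaned off PN early onto sow milk replacer. The groups came from separate litters, so litter, feeding and vehicle cannot be told apart, and no genetic change was introduced in either group. Messenger RNA was selected on its poly-A tail and sequenced as paired reads. The library sizes behind the deposited FPKM values ran from 17337946 to 23421807 in PN and from 17106838 to 24025142 in bottle-fed livers. PN 5, which the study left out as an outlier, was left out of the main comparison here, which leaves 5 PN against 3 bottle-fed libraries, and results with PN 5 are given beside it. Each library is from 1 piglet as far as the labels say, and p-values measure the spread between these libraries. The table with counts per library holds genes that the authors had already called different on the same livers. Its genes pass a log2 fold change of about 1 in size, so the change itself seems to have been part of that choice. The test of PON3 below therefore gives the size and spread of its difference, and that size may be overstated. It is not independent evidence that PON3 differs. Adjusted p-values below are corrected over this preselected table only, of which 45.6% of genes were called lower and 54.1% higher in PN. The correction is therefore mild, and it controls no error rate over all 16223 genes.

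Albumin is the main protein of plasma, made by hepatocytes, and it binds fatty acids, bilirubin and drugs. Alpha-fetoprotein is its fetal counterpart, which the liver makes before birth and shuts down after it, and albumin rises as alpha-fetoprotein falls. ALB, AFP, AFM (afamin, a vitamin E binding protein) and GC form 1 gene family. Negative acute phase proteins are plasma proteins whose synthesis in the liver falls in inflammation, and albumin, transferrin and fetuin A are textbook examples, whereas alpha-1-antitrypsin rises in man. The paraoxonases are lactonases and esterases, of which PON1 and PON3 travel on high-density lipoprotein.

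A short motif before the genes of the albumin family is shown here because ALB, AFP, AFM and GC share it. In the 250 bases before the RefSeq gene start in Sscrofa11.1, the 6 letters GTTAAT were found in 5 of the 9 genes (ALB, AFP, GC, SERPINA6 and TF), with both strands searched, against 5.90% of all 19556 promoters of the same length. AFM held it too. The windows below run 5′ to 3′ on the strand of the gene, with GTTAAT in capitals.
ALB, chr8:69643379-69643426, plus strand: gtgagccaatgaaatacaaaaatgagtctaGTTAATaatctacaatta
AFP, chr8:69677514-69677561, plus strand: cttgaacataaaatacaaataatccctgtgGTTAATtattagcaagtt
AFM, chr8:69706726-69706773, plus strand: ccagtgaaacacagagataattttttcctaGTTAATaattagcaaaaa
GC, chr8:68360300-68360347, minus strand: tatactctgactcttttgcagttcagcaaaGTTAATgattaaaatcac
SERPINA6, chr7:115554634-115554681, minus strand: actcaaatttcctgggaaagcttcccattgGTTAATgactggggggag
The motif began 18 bases before the start of ALB, 146 before AFP, 67 before AFM, 55 before GC and 115 before SERPINA6. SERPINA6 had another copy on the other strand, and in TF, read at the RefSeq gene described as transferrin, the copy lay on the other strand 234 bases before the start. These matches describe letters, and no binding was measured. The motif is shown because relatives share it, so 5 of 9 beside 5.90% is a description and not a test.

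The promoter of PON3, the member with values per library, is shown whole because it held none of the 5 motifs searched (on either strand) and therefore has no capitals.
PON3, chr9:75017948-75018197, minus strand: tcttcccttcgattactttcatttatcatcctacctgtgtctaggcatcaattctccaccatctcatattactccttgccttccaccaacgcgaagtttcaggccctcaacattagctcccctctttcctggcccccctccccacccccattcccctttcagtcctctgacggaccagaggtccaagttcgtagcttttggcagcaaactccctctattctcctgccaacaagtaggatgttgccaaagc
Its GC content was 50.8%, against 30.8% in ALB, 37.2% in AFP, 27.6% in AFM and a median of 57.6% over all promoters. Beside GTTAAT these were the following 4. TATAAA, the TATA box, stood before AFP and GC and in 9.77% of all promoters. CCAAT, the CCAAT box, stood before ALB, AHSG, SERPINA6 and TF and in 31.9% of all. AGGTCA, a half-site of nuclear receptors, stood before PON1 and TF and in 12.2% of all. GGGCGG, the core of the GC box, stood before AFP, PON1 and SERPINA1 and in 45.9% of all. In ALB, AFP and AFM no motif overlapped another.

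By the identifiers counted, ALB led and SERPINA1 came last. Levels are the authors' mean normalized counts, that is, reads per gene after division by a size factor per library, averaged by them over libraries that the sources used here do not name, with no error. ALB (ENSSSCG00000008948) had the highest mean of all 16223 genes, 1886800, which was 8.51% of the summed means. TF (ENSSSCG00000011640), the iron carrier if this identifier counts transferrin, ranked 2 with 553110, or 2.50%. AHSG, a carrier of calcium phosphate (ENSSSCG00000011799), ranked 5 with 356453, or 1.61%. These 3 are the major secreted proteins of the set, and with the other 6 they made up 13.2% of the summed means.

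GC, which carries vitamin D metabolites and actin (ENSSSCG00000027609), ranked 40 with 67123. AFP (ENSSSCG00000008949) ranked 58 with 43572, so reads of the fetal gene were still abundant at day of life 15. PON1 (ENSSSCG00000015332) ranked 347 with 6958. The remaining members were far lower: SERPINA6, the cortisol carrier (ENSSSCG00000002475), ranked 4293 with 612, PON3 (ENSSSCG00000029515) ranked 10018 with 104, and SERPINA1 (ENSSSCG00000038515) ranked 12400 with 28.9. That value for SERPINA1 belongs to this identifier only, and whether other gene models hold reads of alpha-1-antitrypsin was not tested.

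**Figure D1:**
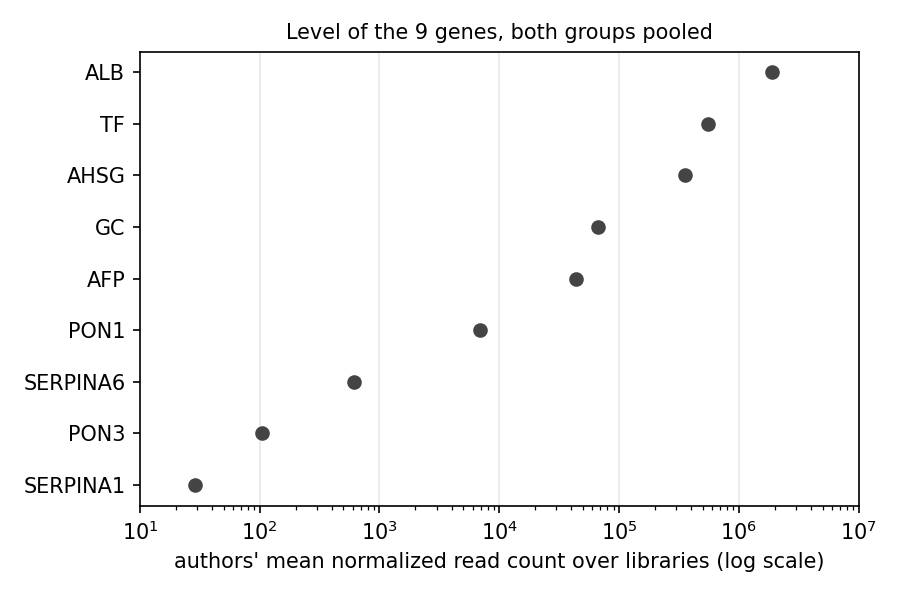
Authors' mean normalized read count of the 9 genes, not split by group, on a log axis (1 point per gene, no error given). The libraries averaged are not named in the sources used here. ALB at 1886800 and SERPINA1 at 28.9 are the extremes, and AFP at 43572 lies above PON1 at 6958.

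Divided by the length of the RefSeq transcript, so that levels of different genes can be compared, the mean per kb of transcript was 919941 for ALB and 21613 for AFP, a ratio of 42.6. AHSG had 178048 per kb, which was 8.24 times AFP. GC had 37457 per kb, above AFP, whereas AFM had 2971 per kb, and ALB was 309.6 times AFM. PON1 had 4942 per kb and PON2, its relative that stays in the cell, 2267. PON3 had 73.3, so that PON1 was 67.5 times PON3. The RefSeq transcript of PON2 holds only its 1065 coding bases, so its value per kb may be too high beside the others. SERPINA6 had 392 per kb and SERPINA1 20.6. TF was given no value per kb, because RefSeq gives this symbol to a pair of neighbouring genes on chromosome 13, an inhibitor of carbonic anhydrase at chr13:74862502-74907059 and transferrin at chr13:74930655-74970599, and which of them the identifier counts is not stated in the sources used here.

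The genes lie in clusters. On chromosome 8, GC (chr8:68326293-68360262, minus strand, 13 exons) is 1283 kb from ALB (chr8:69643427-69663152, plus strand, 15 exons). ALB is followed after 14.5 kb by AFP (chr8:69677690-69698864, 15 exons) and AFP after 7.96 kb by AFM (chr8:69706823-69728269, 15 exons). The equal exon number goes with similar protein lengths, 607 residues in ALB, 610 in AFP and 604 in AFM, while GC has 473. On chromosome 9, PON1 (chr9:74943646-74974720), PON3 (chr9:74983040-75017947) and PON2 (chr9:75027270-75051441) lie in a row on the minus strand with gaps of 8.32 and 9.32 kb. SERPINA6 (chr7:115535552-115554536) and SERPINA1 (chr7:115604282-115616915) share the minus strand of chromosome 7 with 49.7 kb between them, and AHSG lies alone at chr13:124426313-124438848.

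The members are related but not near-identical, and reads of near-identical copies cannot be assigned with certainty. Aligned coding bases were 52.8% identical between ALB and AFP, 43.2% between ALB and GC, 66.6% between PON1 and PON3, 69.7% between PON3 and PON2, and 56.8% between SERPINA6 and SERPINA1. The longest identical stretch of transcript was 15 bases for ALB and AFP, 13 for PON1 and PON3 and 17 for PON3 and PON2. The pair of genes named TF shared 72.9% of coding bases and a stretch of 69.

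PON3 was lower in PN livers. This paraoxonase is made in the liver and hydrolyses lactones, and in man it is bound to high-density lipoprotein. The deposited table places it at chr9:74991277-75017942 on the minus strand with 1419 bases of transcript. Its normalized counts were 98.5, 35.4, 33.7, 62.1 and 48.0 in PN 1, 2, 3, 4 and 6, with 81.0 in PN 5, against 125, 109.5 and 219 in bottle-fed 1, 2 and 3. Every PN library lay below every bottle-fed library, PN 5 included, but the margin was small, since the lowest bottle-fed value was 1.11 times the highest of the 5 PN values. Within groups the values varied as well, by 2.93-fold over the 5 PN and by 2.00-fold over the 3 bottle-fed libraries, where bottle-fed 3 was 1.75 times the next. The means were 55.5 ± 26.6 in PN (SD, n = 5) and 151 ± 59.1 in bottle-fed livers (SD, n = 3), and the mean FPKM was 1.98 ± 0.954 in PN and 5.41 ± 2.11 in bottle-fed livers. The raw counts behind them were 35 to 210 reads.

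The log2 fold change of PON3 was -1.44 with a standard error of 0.40, which is 36.8% of the bottle-fed level (edgeR, adjusted p = 0.00527 over 1054 genes). With PN 5 in the fit it was -1.34 (edgeR, adjusted p = 0.00705). A two-sided exact permutation test of the mean log2(normalized count + 1) gave a difference of -1.48 and p = 0.0357 over 8 libraries, where the smallest p that 56 splits allow is 0.0179, and p = 0.0238 over all 9. Without bottle-fed 3 the log2 fold change was -1.08 (edgeR, adjusted p = 0.0384) and the exact p was 0.0952. In bulk liver, fewer cells that express a gene and less RNA per cell cannot be told apart.

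**Figure D2:**
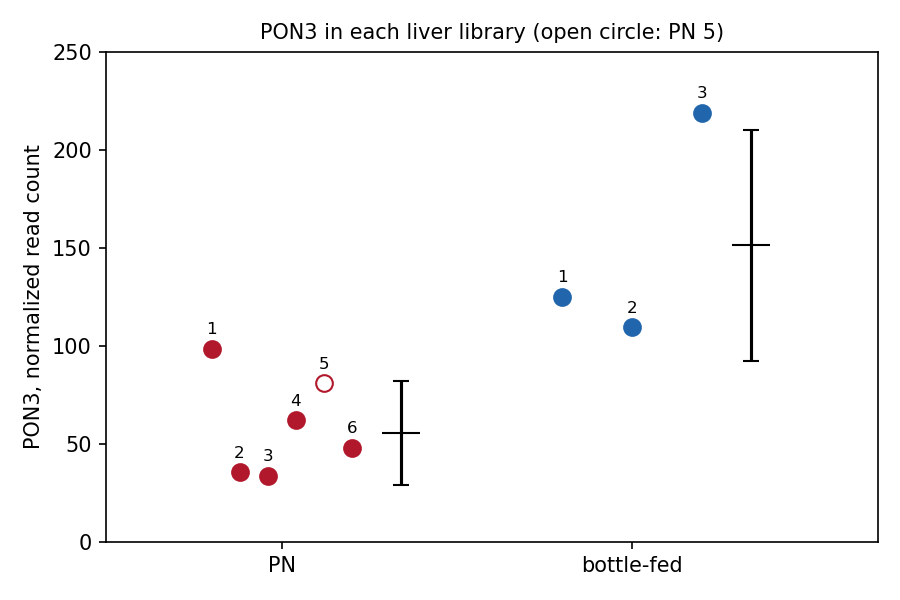
PON3 normalized read count in each PN and bottle-fed library, numbered by replicate; bars are the mean and SD of the 5 PN libraries other than PN 5 (open circle, 81.0) and of the 3 bottle-fed libraries. All PN libraries lie between 33.7 and 98.5 and all bottle-fed libraries between 109.5 and 219.

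PON3 was thus the 1 member called, lower in PN, of the 1 member with counts per library. Of the 1054 genes of that table, 45.6% were called lower and 54.1% higher in PN, and in 41.6% all 5 PN values lay below all 3 bottle-fed values. Because the table was preselected, nothing about the 9 genes follows from these shares. Among the 481 genes that fell, 254 fell further than PON3, whose change was close to their median of -1.48, and its standard error of 0.40 was near the median of 0.37 over the table. Of the 1054 genes, 406 had a lower mean than PON3. These standings hold within the preselected table only.

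Cell type markers could be read only where they stood in the preselected table, so a difference in them was given in advance. Of its 1054 genes, 54.1% were called higher and 45.6% lower in PN, so nothing about cell types follows from these calls. CPS1, the urea cycle enzyme and the 1 of 10 hepatocyte markers with counts per library, had 18459 to 48854 normalized counts in the 5 PN libraries and 5290 in PN 5, against 49685 to 58313 in bottle-fed livers. Of 6 cholangiocyte markers, 3 had counts (KRT7, EPCAM and SPP1, a keratin, an adhesion protein and osteopontin), and they summed to 637 to 1714 in the 5 PN libraries and 2216 in PN 5, against 239 to 329 in bottle-fed livers. VWF, the 1 of 7 endothelial markers with counts, had 392 to 1208 in the 5 PN libraries and 275 to 385 in bottle-fed livers, and lost its call without bottle-fed 2. DCN, the 1 of 7 stellate cell markers, had 84.5 to 174 in the 5 PN libraries and 128 to 673 in bottle-fed livers, and lost its call without bottle-fed 1 (log2 fold change -0.53). CSF3R, the 1 of 4 neutrophil markers, had 17.6 to 114 in the 5 PN libraries and 8.07 to 22.9 in bottle-fed livers, and lost its call without PN 2, bottle-fed 1 or bottle-fed 2. The macrophage, T and NK cell and erythroid lists had no gene with counts. The part of these shifts in the PON3 difference was not tested.

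The genes closest to PON3 from library to library were picked by rank, without a test. Over all 9 libraries and 628 genes whose mean reached 50 normalized counts, the log2 values closest to PON3 were those of NREP (Pearson r = 0.96), GCAT, an enzyme of threonine breakdown (0.92), and IGFALS, which carries insulin-like growth factors in plasma (0.92). Over the 6 PN libraries alone, where the group difference plays no part, they were TM6SF1 (0.95), H2AX, a histone (0.91), and OCLN, a tight junction protein (0.90). The lists share no gene, and the OCLN mean was higher in PN, 1698, than in bottle-fed livers, 857. These are descriptions over few libraries that share depth and preselection. The highest of 628 or 627 correlations can be large by chance, and those over all 9 libraries include the group difference.

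The surroundings of the 9 genes were described with 8 lists of 116 genes, of which 94 had a mean over libraries and 9 had counts per library. In the fit without PN 5, 4 of the 9 were called higher and 5 lower in PN, with the same calls when PN 5 was added. The preselected table as a whole had 54.1% called higher and 45.6% lower, so nothing about the lists follows from these counts. The rest could not be compared between the groups here.

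Among the other carriers and negative acute phase proteins, 2 of 18 listed genes had counts, AFM and APOA2, and both fell. AFM, the neighbour and relative of AFP, had 5038, 3286, 2323, 3065 and 2790 normalized counts in PN 1, 2, 3, 4 and 6 and 3906 in PN 5, against 10030, 10926 and 10598 in bottle-fed 1, 2 and 3. The groups were far apart, and the 3 bottle-fed values were close together. The log2 fold change was -1.67 with a standard error of 0.28 (edgeR, adjusted p = 0.00037), or 31.4% of the bottle-fed level, and the exact permutation p was 0.0179, the smallest possible. APOA2, an apolipoprotein of high-density lipoprotein, had 12826, 6394, 7948, 10034 and 10639 in PN 1, 2, 3, 4 and 6 and 7054 in PN 5. Bottle-fed 1, 2 and 3 had 21758, 27986 and 19446. APOA2 too had no overlap between groups, with a log2 fold change of -1.27 and a standard error of 0.29 (edgeR, adjusted p = 0.00196).

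Among the paraoxonases and clade A serpins, 1 of 11 listed genes had counts. SERPINA3-2, a pig relative of alpha-1-antichymotrypsin, had 106515, 312406, 148037, 194563 and 118715 normalized counts in PN 1, 2, 3, 4 and 6 and 167411 in PN 5, against 94505, 74790 and 88616 in bottle-fed 1, 2 and 3. PN 2 stood highest, and PN 1 lay close above the bottle-fed values. The log2 fold change of 1.03 with a standard error of 0.40 passed the test (edgeR, adjusted p = 0.0230), the exact permutation p was 0.0536, and the call was lost without PN 2 (0.72), without bottle-fed 2 (0.94) and without bottle-fed 3 (1.06). Its model spans several RefSeq serpin genes, so its reads may come from more than 1 of them.

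Of the 18 fetal liver genes, 2 had counts, and they moved in opposite directions. DLK1, an imprinted gene of fetal liver precursors, had 13.7 to 107 normalized counts in the 5 PN libraries and 87.6 in PN 5, against 189 to 373 in bottle-fed livers (log2 fold change -2.53, standard error 0.48, edgeR adjusted p = 0.00083). LPL, the lipoprotein lipase that liver loses after birth, had 8.78 to 25.3 in the 5 PN libraries and 106 in PN 5, against 4.09, 1.15 and 0 in bottle-fed livers (log2 fold change 2.79, standard error 0.90, edgeR adjusted p = 0.0103). LPL rests on few reads in bottle-fed livers: its log2 fold change was 4.35 without bottle-fed 1 and 3.86 with PN 5.

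Of 17 transcription factors known to act on ALB and AFP, 1 had counts: FOXA1, a forkhead factor of liver development, fell to 191 to 355 normalized counts in the 5 PN libraries and 78.7 in PN 5, against 529 to 618 in bottle-fed livers (log2 fold change -1.07, standard error 0.25, edgeR adjusted p = 0.00212). HNF4A had only a mean (3927), as had ZHX2 and ZBTB20, which repress AFP in mouse (162 and 23.5). For iron, 1 of 17 had counts: BMP6, an inducer of hepcidin, rose. It had 581 to 843 in the 5 PN libraries and 550 in PN 5, against 195 to 292 in bottle-fed livers (edgeR, adjusted p = 0.00026), a mean of 734 ± 98.9 in PN (SD, n = 5) and 241 ± 48.2 in bottle-fed livers (SD, n = 3). Its authors' mean of 2533, looked up by gene symbol, exceeds every one of these values. Whether that mean and these counts belong to the same identifier was not tested. None of the 8 vitamin D genes had counts.

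For cortisol, which SERPINA6 carries, 2 of 10 genes had counts, both known targets of the glucocorticoid receptor. FKBP5, a co-chaperone of that receptor, had 1395 to 2124 normalized counts in the 5 PN libraries and 1386 in PN 5, against 382 to 767 in bottle-fed livers (log2 fold change 1.82, standard error 0.30, edgeR adjusted p = 0.00034). TSC22D3, known as GILZ, went the other way, with 674 to 1261 in the 5 PN libraries and 746 in PN 5, against 2046 to 2547 in bottle-fed livers (log2 fold change -1.31, standard error 0.24, edgeR adjusted p = 0.00075). None of the 21 genes on the list of positive acute phase proteins had counts. SERPINA3-2 stood on the serpin list and not on this one.

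**Figure D3:**
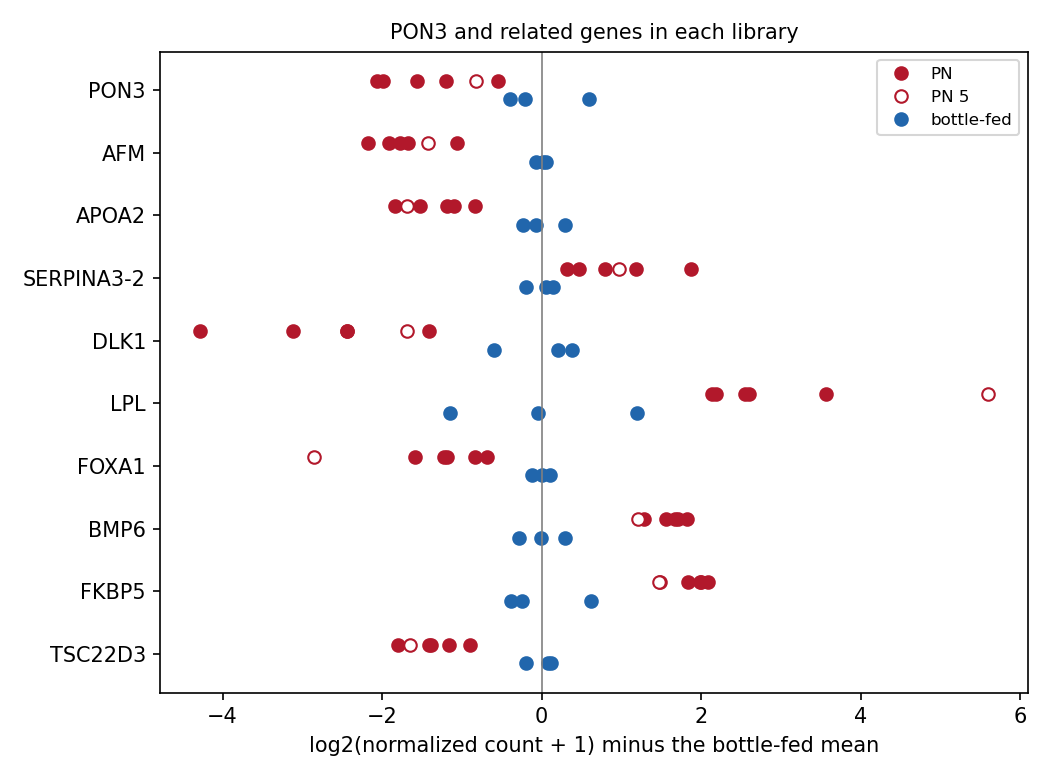
Log2(normalized count + 1) of PON3 and the 9 list genes with counts, each minus the mean of the 3 bottle-fed libraries, with 1 point per library (red, PN, open for PN 5; blue, bottle-fed). PN points lie left of 0 for PON3, AFM, APOA2, DLK1, FOXA1 and TSC22D3 and right of 0 for SERPINA3-2, LPL, BMP6 and FKBP5.

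The neighbourhood of the 9 genes was also read, in a window of 1 Mb chosen after the values were seen. It held 15 genes with counts per library, of which 10 were called higher and 5 lower in PN, against 54.1% and 45.6% of the preselected table, so nothing about the neighbourhood follows from this count. Downstream of AFP, AFM at 8.03 kb, the unnamed ENSSSCG00000023426 at 33.3 kb and RASSF6, an adaptor of Ras signalling, at 73.1 kb all fell, with log2 fold changes of -1.67, -1.73 and -1.48. The last pair overlap each other on opposite strands in the deposited coordinates, and the use of strand in counting is not stated in the sources used here, so reads in the stretch they share cannot be told apart. CXCL8, the neutrophil chemokine, 234 kb from AFP, rose in the same region: it had 27.8 to 143 normalized counts in the 5 PN libraries and 99.8 in PN 5, against 3.12 to 3.46 in bottle-fed livers, with a log2 fold change of 4.44 and a standard error of 0.69 (edgeR, adjusted p = 0.00024).

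Near PON3, PDK4, a kinase that switches off pyruvate dehydrogenase, rose by 1.19 on the log2 scale at 228 kb, and DYNC1I1, a dynein chain, had a log2 fold change of -1.45 at 318 kb. Around the serpins, 5 genes were called higher: ENSSSCG00000031595 (3.86), ENSSSCG00000002486 (2.00), ISG12(A), induced by interferon (1.85, or 2.64 with PN 5, with overlapping groups), SERPINA3-2 (1.03) and the helicase DDX24 (0.85), all as log2 fold changes. ENSSSCG00000031595 varied most, with 4339 to 100779 normalized counts in the 5 PN libraries and 10264 in PN 5, against 1319 to 4683 in bottle-fed livers, so its groups overlapped too. ENSSSCG00000002486 lies opposite the SERPINA3-2 model and may share its reads. ENSSSCG00000002486 had 11547 to 36614 normalized counts in the 5 PN libraries, against 4253 to 7079 in bottle-fed livers. With 5906 in PN 5, its groups overlapped once PN 5 was added. The remaining neighbours were SLCO2A1, a prostaglandin transporter, near TF (1.03), ETV5 (-1.08) and ENSSSCG00000034802 (1.25) near AHSG, and AMBN, an enamel protein, near GC (1.52). The AMBN groups overlapped, and its call was lost without PN 2, PN 3, PN 4, bottle-fed 1 or bottle-fed 2.

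**Figure D4:**
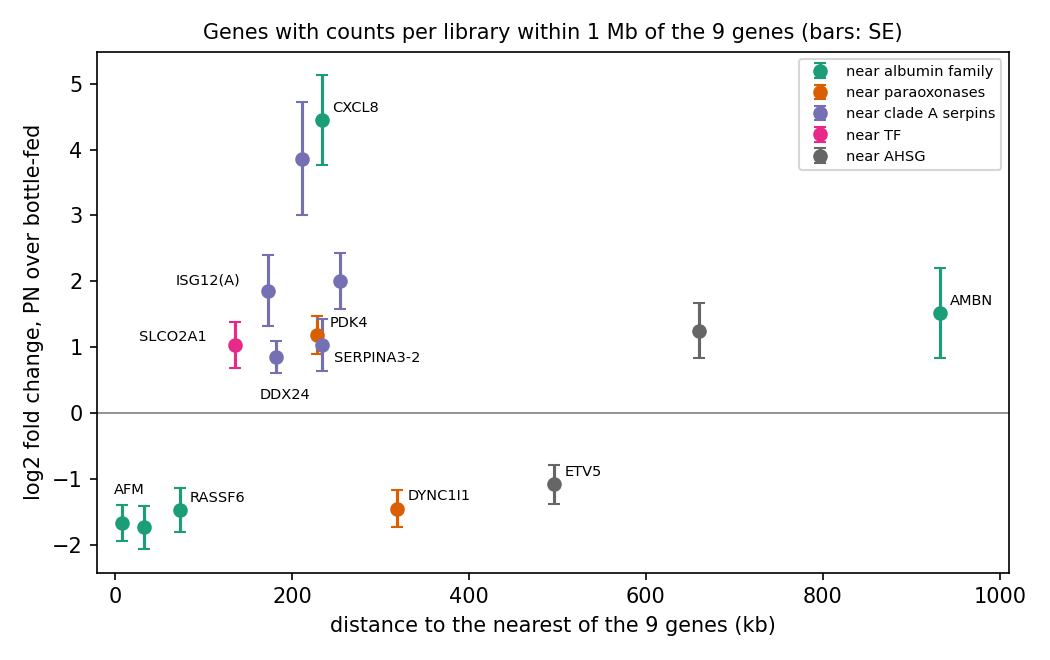
Log2 fold change (PN over bottle-fed, bars are the standard error of the edgeR fit) of the 15 genes with counts per library against their distance in kb from the nearest of the 9 genes, coloured by that gene's cluster. The 3 genes within 80 kb of AFP lie between -1.73 and -1.48, and CXCL8 lies at 4.44.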

How the data were processed

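RNA-Seq of piglet liver was read from the processed tables, 6 PN and 3 bottle-fed libraries, grouped by their labels. Per the methods and the submitters' processing notes, the authors used HISAT2 2.0.5 for mapping to Sscrofa11.1 and featureCounts 2.0.3 for counting reads per gene. The notes name DESeq2 1.26.0 and the methods another version. The counts deposited by the authors are raw reads per gene and library for 1054 genes. The normalized counts, a signal deposited by the authors, are these counts over 1 size factor per library (0.868 to 1.22), and the mean signal over libraries is the authors' own for 16223 genes. The FPKM values deposited by the authors scale counts by transcript length and a library size, which is recovered from them as a number that is not whole. It nearly follows the size factors and may be a scaled total. The columns of the authors' own comparison (log2 fold change, standard error, Wald statistic, p and adjusted p) and their group means were not used.

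Counts of the 8 libraries without PN 5 were fitted with edgeR 4.0.16 (quasi-likelihood test, R 4.3.3, limma 3.58.1), with the authors' size factors, no filter, Benjamini-Hochberg adjustment over all 1054 genes and a call at an adjusted p under 0.05. The same scripts were tested on simulated data. Single genes also had an exact permutation test on log2(normalized count + 1). Alternatives were all 9 libraries, each library left out, a replicate block, DESeq2 1.42.0, the library sizes behind FPKM, TMM scaling, a minimum mean of 10, and pseudocounts of 0.5 and 5. No pair of libraries agreed within sampling noise (in 36 pairs the chi-square over its degrees of freedom was at least 76.8), and the genes of the table took 7.03% to 9.37% of the library size in PN and 6.48% to 7.17% in bottle-fed livers. Of genes in both tables, 64.8% had an authors' mean within 0.2 log2 units of the mean of the 8 libraries. Promoters, exons and coding sequences are from RefSeq, Sscrofa11.1, with 1 transcript per gene, a curated one where there was one and otherwise the longest. Named are the 9 genes, the 3 genes with the highest correlation with PON3 over all 9 and over the 6 PN libraries among those with a symbol and a mean of at least 50, and up to 4 genes per list with counts per library. Neighbours and cell type markers stand outside this rule. A few listed genes are not reported here, and the counts per list leave them out. The genes and lists were chosen with earlier results of these data known. Calculations outside R used Python 3.11.15 with scipy 1.17.1, pandas 2.3.3 and numpy 2.4.6; matplotlib 3.10.9 drew the figures.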

Additional observations from a re-analysis of the deposited data

Results flagged for a closer look

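In 4 of 30 genes looked at, 1 PN library stood far from the other 5. The measure was the gap to its nearest neighbour over the range of the group. In normally distributed values such a gap arises by chance in about 1 group in 20. Normalized counts were used without logs and need not be so distributed. PN 5 was the high library in 3 of the 4 genes. LPL had 106 normalized counts in PN 5, against 8.78 to 25.3 in the other PN libraries. DDX24 had 2767 in PN 5, against 1263 to 1690. ISG12(A) had 21789 in PN 5, against 1512 to 7525. SLCO2A1 had 274 in PN 3, against 122 to 148. PON3 was not among them.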

How the results depend on the processing

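Of 431 tested differences under an alternative, 409 kept their direction and their side of the threshold and 22 kept the direction only; none reversed. All 50 counts of genes stayed within 1.5 times the main count. PON3 stayed called throughout: its log2 fold change ran from -1.75 (without PN 1) to -1.08 (without bottle-fed 3) with 1 library left out (adjusted p from 0.0018 to 0.0384), and from -1.54 to -1.34 under the other settings (edgeR, adjusted p from 0.0052 to 0.0177; 0.00154 in DESeq2). The exact test of PON3 gave differences from -1.71 to -1.18 with 1 library left out, and p from 0.0286 to 0.0952; it missed 0.05 without PN 2, 3, 4 or 6 (p = 0.0571 each) and without bottle-fed 3. Other pseudocounts and CPM gave -1.49 to -1.20. With a replicate block over the libraries numbered 1 to 3, PON3 had a log2 fold change of -1.54 (edgeR, adjusted p = 0.0177), and SERPINA3-2 (0.98), CPS1 (-0.84), VWF (0.58) and AMBN (1.47) lost their calls; the groups share only numbers, with correlations of -0.03, -0.05 and -0.02 between same-numbered libraries. Single libraries also decided the calls of CSF3R (1.08 without PN 2), VWF (0.90 without bottle-fed 2) and AMBN (1.24 without bottle-fed 2). Depth limits PON3, with 35 to 210 reads per library, and LPL, with 0 to 96. The other 8 genes have no value per library here, and SERPINA1 and TF are uncertain as to the gene copy counted.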
